A study of Mus musculus with 8 samples.

Results

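*Osgin1*, a gene of the oxidative stress response, was examined beside 9 genes of the NRF2 antioxidant pathway in mouse livers without *Smpd3* in hepatocytes. The 10 genes are 10 of the 55416 genes listed in the deposited table. *Osgin1* was chosen because its mean level doubled in the knockout livers, so its values are given as a description with no test. The other 9 genes, *Nfe2l2*, *Keap1*, *Nqo1*, *Srxn1*, *Txnrd1*, *Hmox1*, *G6pdx*, *Slc7a11* and *Prdx1*, were taken by name as NRF2 pathway genes outside the glutathione enzymes, and the question was whether *Osgin1* was higher with or without them. The knockout livers were 4 HKO samples, labelled Alb-cre+, in which Cre recombinase under the albumin promoter removes floxed *Smpd3* in hepatocytes. They were compared with 4 FLOX samples, labelled Alb-cre-, which carry the floxed gene without Cre. Both groups were fed HFMCD, a diet used in the study to induce steatohepatitis, for 9 weeks. The controls lack Cre, so effects of Cre and of *Smpd3* loss cannot be told apart, and no liver on another diet was analysed here. The sources used here give no age, sex or time of day at collection, and do not say that each sample is a separate animal. The p-values therefore measure only how far these samples spread, which may be technical.

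RNA of whole liver was sequenced, and the values are TPM (transcripts counted per gene length and scaled to a common total). The totals of the 8 libraries lay between 994563 and 995449 TPM, and the unit holds no depth. *Smpd3*, which encodes neutral sphingomyelinase 2, stood at 1.17, 3.03, 1.27 and 2.06 TPM in HKO1 to HKO4, against 8.69, 10.72, 12.54 and 6.38 TPM in FLOX1 to FLOX4, so that every knockout lay below every control. The fit took the 12710 genes that had 1 TPM or more in 4 or more libraries. The hepatocyte markers *Alb* and *Ttr* were abundant in all libraries. In limma, 13 of the 12710 genes (0.102%) passed a Benjamini-Hochberg adjusted p of 0.05, of which 6 (0.0472%) were higher and 7 (0.0551%) lower in HKO. Of the 10 genes, 9 reached the level needed for the test, and *Slc7a11* did not.

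NRF2, the product of *Nfe2l2*, is a transcription factor that is held at a low level by KEAP1, an adaptor that brings it to a CUL3 ubiquitin ligase for degradation. Electrophiles and oxidants modify cysteines of KEAP1, NRF2 then escapes degradation, pairs with small MAF proteins and binds antioxidant response elements near its target genes. Because NRF2 is controlled mainly as a protein, transcripts of its targets are commonly read as a sign of its activity. *Osgin1* encodes oxidative stress induced growth inhibitor 1, and in human cells it is known to be induced by oxidised phospholipids and by NRF2.

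Promoter windows from RefSeq (build GRCm38.p6), reaching from 250 bases before to 50 bases after an annotated start, were at hand for 9 of the 10 genes, in 11 windows because *Txnrd1* had several starts. *Hmox1* was without one. The core of the antioxidant response element was searched on both strands as TGACNNNGC and as TGAGNNNGC, which cannot match the same bases on the same strand. At least 1 of these was present in 7 of the 11 windows, belonging to 7 genes, against 27.8% of all 32851 windows in the table. *Keap1* and *Nqo1* had neither in this window, and the windows say nothing of sequence farther away. The 250 bases before the start are shown for *Osgin1* and for *Srxn1* and *Prdx1*, because these are the members whose core has TCA between its ends, with the cores in capitals, 5′ to 3′ on the strand of each gene:
Osgin1, chr8:119436897-119437146, plus strand: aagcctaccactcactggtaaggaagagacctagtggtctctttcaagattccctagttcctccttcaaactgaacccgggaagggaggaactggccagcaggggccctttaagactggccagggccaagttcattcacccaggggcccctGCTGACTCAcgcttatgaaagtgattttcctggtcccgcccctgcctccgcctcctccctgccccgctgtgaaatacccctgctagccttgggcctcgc
Srxn1, chr2:152105274-152105523, plus strand: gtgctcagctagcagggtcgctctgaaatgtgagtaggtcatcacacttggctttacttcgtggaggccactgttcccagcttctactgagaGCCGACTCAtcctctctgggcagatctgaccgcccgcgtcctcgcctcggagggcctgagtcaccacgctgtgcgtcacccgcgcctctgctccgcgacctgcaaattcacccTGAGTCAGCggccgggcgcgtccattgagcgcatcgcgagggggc
Prdx1, chr4:116685349-116685598, plus strand: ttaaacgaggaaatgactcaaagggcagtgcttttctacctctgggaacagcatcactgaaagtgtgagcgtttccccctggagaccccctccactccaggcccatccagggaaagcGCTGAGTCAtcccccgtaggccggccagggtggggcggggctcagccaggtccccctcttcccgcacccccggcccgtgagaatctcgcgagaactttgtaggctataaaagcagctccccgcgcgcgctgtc
On the strand opposite the gene, the *Osgin1* core reads TGAGTCAGC and ends 90 bases before the start. The same bases stood on the gene's own strand in *Srxn1*, 36 bases before the start, and *Srxn1* had another core, TGAGTCGGC, on the opposite strand. The *Prdx1* core reads TGACTCAGC on the opposite strand. TGAGTCAGC occurred in 0.414% and TGACTCAGC in 0.454% of all 300-base windows, on either strand. The form with TCA was singled out after the windows had been read, and a match is a description of the sequence, not evidence of binding.

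*Osgin1* (ENSMUSG00000074063) stood at 299.53, 377.16, 328.93 and 464.55 TPM in HKO1 to HKO4, against 192.39, 162.69, 162.95 and 189.83 TPM in FLOX1 to FLOX4. The lowest knockout lay above the highest control. The means were 368 ± 72.2 TPM in HKO and 177 ± 16.4 TPM in FLOX (SD, n = 4 each), a ratio of 2.08. A ratio of 2 or more was found for 0.803% of all tested genes. The knockouts also spread more, with a coefficient of variation of 19.6% in HKO and 9.25% in FLOX. These values chose the gene. Among the 1095 tested genes with a FLOX mean of at least 100 TPM, only 1 other gene, *Igfbp1*, had a ratio of at least 2 (2.64), and the next gene below *Osgin1* had a ratio of 1.84. This cut was not planned, the ranking uses the values that chose *Osgin1*, and *Igfbp1* is named after its values were seen. On the log2(TPM + 1) scale used in all comparisons, the difference between HKO and FLOX was 1.03 for *Osgin1*, and it lay between 0.92 without HKO4 and 1.13 without HKO1 when libraries were left out singly.

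Across all 8 libraries the levels of the 10 genes ran from *Prdx1* (mean 873 TPM) through *Osgin1* (272 TPM), *Hmox1* (106 TPM), *Srxn1* (92.0 TPM), *Txnrd1* (85.3 TPM), *Nfe2l2* (53.2 TPM), *Keap1* (30.3 TPM), *Nqo1* (18.5 TPM) and *G6pdx* (11.6 TPM) to *Slc7a11* (0.674 TPM). TPM is per length, so these levels can be set side by side. The ranges of *Hmox1* and *Srxn1*, of *Srxn1* and *Txnrd1*, of *Keap1* and *Nqo1* and of *Nqo1* and *G6pdx* overlapped, and those of the other neighbours in this order did not.

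**Figure D1:**
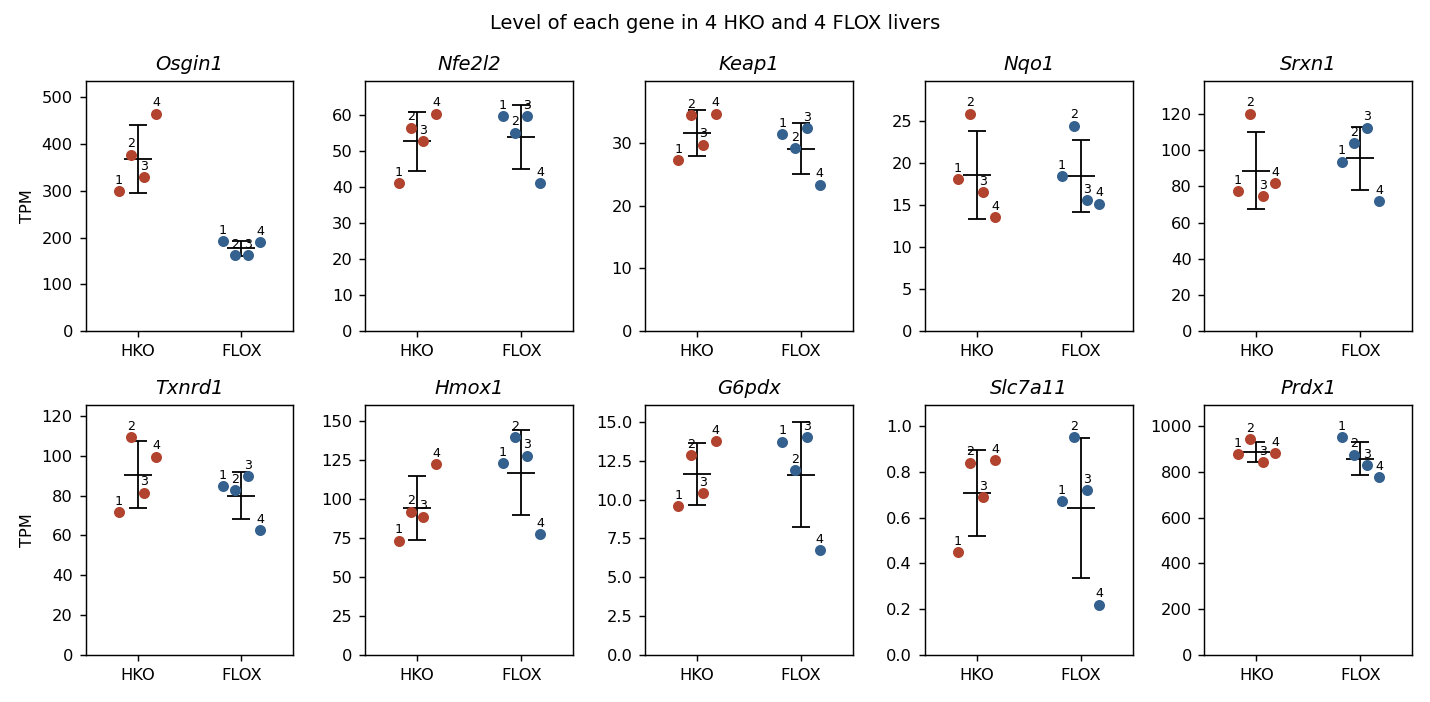
TPM of each of the 10 genes in the 4 HKO livers (red, left) and the 4 FLOX livers (blue, right), numbered by replicate. Black bars are the mean and SD of each group, each vertical axis starts at 0, and only for *Osgin1* do all HKO points (299.53 to 464.55 TPM) lie above all FLOX points (162.69 to 192.39 TPM).

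None of the 8 tested NRF2 pathway genes passed in limma, at an adjusted p of 0.05 over all genes or at an unadjusted p of 0.05. The second threshold was passed by 8.02% of all tested genes, so that none among 8 is near the background. Values were higher in HKO for 4 genes and lower for 4, where 64.6% of all tested genes had higher values. The groups overlapped in all 8. They did not overlap for 4.74% of all tested genes, so that overlap in all 8 is also near the background. The log2 fold changes ran from -0.30 to 0.17 with a median of 0.02, beside 0.05 for all tested genes. The 95% intervals of these 8 differences all lay between -0.73 and 0.51, so that none reached a doubling. The lists and genes were chosen with earlier results of these data known.

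Of the regulators, *Nfe2l2* (ENSMUSG00000015839), which encodes NRF2 itself, stood at 41.13, 56.44, 52.58 and 60.28 TPM in HKO1 to HKO4, against 59.65, 55.06, 59.50 and 40.96 TPM in FLOX1 to FLOX4. Its lowest library in each group was HKO1 and FLOX4, with nearly the same level. The means were 52.6 ± 8.27 TPM in HKO and 53.8 ± 8.82 TPM in FLOX (SD, n = 4 each; log2 fold change -0.03 ± 0.15 SE, 95% interval -0.36 to 0.30, adjusted p = 0.992 in limma). *Keap1* (ENSMUSG00000003308), the repressor of NRF2, stood at 27.32, 34.48, 29.74 and 34.66 TPM in HKO1 to HKO4, against 31.40, 29.20, 32.38 and 23.37 TPM in FLOX1 to FLOX4. FLOX4 was again the lowest and the groups overlapped (log2 fold change 0.12 ± 0.13 SE, 95% interval -0.16 to 0.40, adjusted p = 0.904 in limma).

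*Nqo1* (ENSMUSG00000003849), the quinone reductase often used as the standard NRF2 target, stood at 18.08, 25.91, 16.58 and 13.63 TPM in HKO1 to HKO4, against 18.51, 24.49, 15.64 and 15.19 TPM in FLOX1 to FLOX4. HKO4, the library with the most *Osgin1*, had the least *Nqo1* of all 8. The means were 18.6 ± 5.24 TPM in HKO and 18.5 ± 4.28 TPM in FLOX (SD, n = 4 each; log2 fold change -0.0052 ± 0.20 SE, 95% interval -0.45 to 0.44, adjusted p = 1.00 in limma). *Hmox1* (ENSMUSG00000005413), the inducible heme oxygenase that opens heme to biliverdin, iron and carbon monoxide, stood at 73.36, 92.00, 88.72 and 122.69 TPM in HKO1 to HKO4, against 122.86, 139.62, 127.84 and 77.48 TPM in FLOX1 to FLOX4. All HKO values lay below FLOX1 to FLOX3, while FLOX4 lay below all knockouts but HKO1. Its log2 fold change was -0.30 ± 0.20 SE (95% interval -0.73 to 0.13, adjusted p = 0.792 in limma). Without FLOX4 it was -0.48, and it still did not pass (adjusted p = 0.415 in limma).

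The thioredoxin branch reduces protein disulfides and peroxides with electrons from NADPH. *Txnrd1* (ENSMUSG00000020250), the cytosolic thioredoxin reductase, stood at 71.85, 109.25, 81.50 and 99.58 TPM in HKO1 to HKO4, against 84.91, 82.64, 89.74 and 62.72 TPM in FLOX1 to FLOX4. It had the highest log2 fold change of the 8 genes, 0.17 ± 0.15 SE (95% interval -0.16 to 0.50, adjusted p = 0.875 in limma), which became 0.06 without FLOX4 and 0.27 without HKO1 (adjusted p = 0.958 and 0.527 in limma). *Srxn1* (ENSMUSG00000032802), sulfiredoxin, which restores overoxidised peroxiredoxins, stood at 77.53, 120.10, 74.79 and 81.96 TPM in HKO1 to HKO4, against 93.61, 104.04, 112.37 and 71.71 TPM in FLOX1 to FLOX4. HKO2 was far above the other knockouts, and the difference was -0.11 ± 0.17 SE on the log2 scale (95% interval -0.50 to 0.27, adjusted p = 0.942 in limma). *Prdx1* (ENSMUSG00000028691), a cytosolic peroxiredoxin, was the steadiest member. It stood at 878.53, 944.69, 843.03 and 883.27 TPM in HKO1 to HKO4, against 951.80, 876.29, 831.40 and 777.68 TPM in FLOX1 to FLOX4, and its 95% interval of the log2 fold change, -0.12 to 0.22, was the narrowest of the 8 (estimate 0.05 ± 0.08 SE, limma adjusted p = 0.943). The groups overlapped for *Srxn1* and for *Prdx1*, as they did for all but 4.74% of all tested genes.

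The last members supply NADPH and cystine. *G6pdx* (ENSMUSG00000031400), the X-linked gene of glucose-6-phosphate dehydrogenase at the entry of the pentose phosphate pathway, stood at 9.56, 12.85, 10.41 and 13.75 TPM in HKO1 to HKO4, against 13.73, 11.92, 14.01 and 6.74 TPM in FLOX1 to FLOX4. Its HKO4 and FLOX1 libraries were nearly level, and FLOX4 was the lowest of all. The difference was 0.04 ± 0.21 SE on the log2 scale with all libraries and -0.18 without FLOX4 (adjusted p = 0.993 and 0.825 in limma), and its sign also turned without HKO2 (-0.0096), without HKO4 (-0.040) and with quantile normalization (-0.024) or median-of-ratios scaling (-0.018). *Slc7a11* (ENSMUSG00000027737), the cystine-glutamate antiporter, is an NRF2 and ATF4 target. It stood at 0.45, 0.84, 0.69 and 0.85 TPM in HKO1 to HKO4, against 0.67, 0.95, 0.72 and 0.22 TPM in FLOX1 to FLOX4, below 1 TPM in all libraries, and was not tested.

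**Figure D2:**
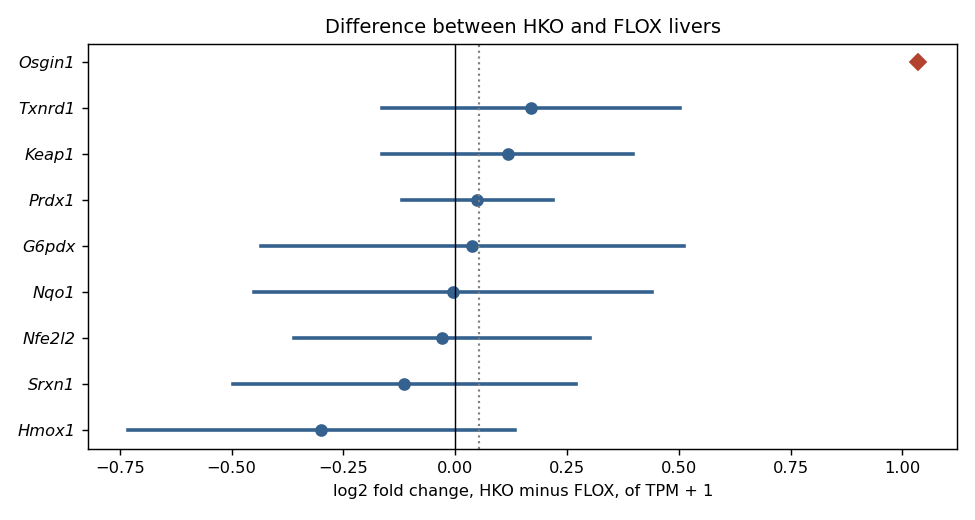
Log2 fold change of TPM + 1, HKO minus FLOX (horizontal axis), for the 9 genes that reached the level for the test. Circles and bars are limma estimates with 95% intervals, the red diamond is *Osgin1* without interval because it was chosen by this value, and the dotted line is the median of all tested genes (0.05). The 8 intervals span 0 and end at or below 0.51, while *Osgin1* lies at 1.03.

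The level of *Osgin1* was then set against each gene within the same library, which removes the scale of the library. The log2 ratio of *Osgin1* TPM to the TPM of each of the 8 tested genes was higher in every HKO library than in every FLOX library, for 8 of 8 genes. The differences between group means ran from 0.87 with *Txnrd1* to 1.34 with *Hmox1*. These ratios share *Osgin1*, carry the value by which it was chosen, and are a description. With *Hmox1* the log2 ratio was 2.03, 2.04, 1.89 and 1.92 in HKO1 to HKO4, against 0.65, 0.22, 0.35 and 1.29 in FLOX1 to FLOX4. Within the knockouts this ratio was nearly constant, with an SD of 0.07 in HKO and 0.48 in FLOX. The ratio to *G6pdx* behaved in the same manner, with an SD of 0.08 in HKO and 0.57 in FLOX. The ratio to *Nqo1* had an SD of 0.54 in HKO and 0.39 in FLOX. Of the 8 genes, *Hmox1* and *G6pdx* had the lowest SD in HKO and *Nqo1* the highest. The next lowest was 0.13, with *Nfe2l2*. These SDs were described after the values had been seen. The share of all tested genes with as steady a ratio to *Osgin1* was not counted.

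**Figure D3:**
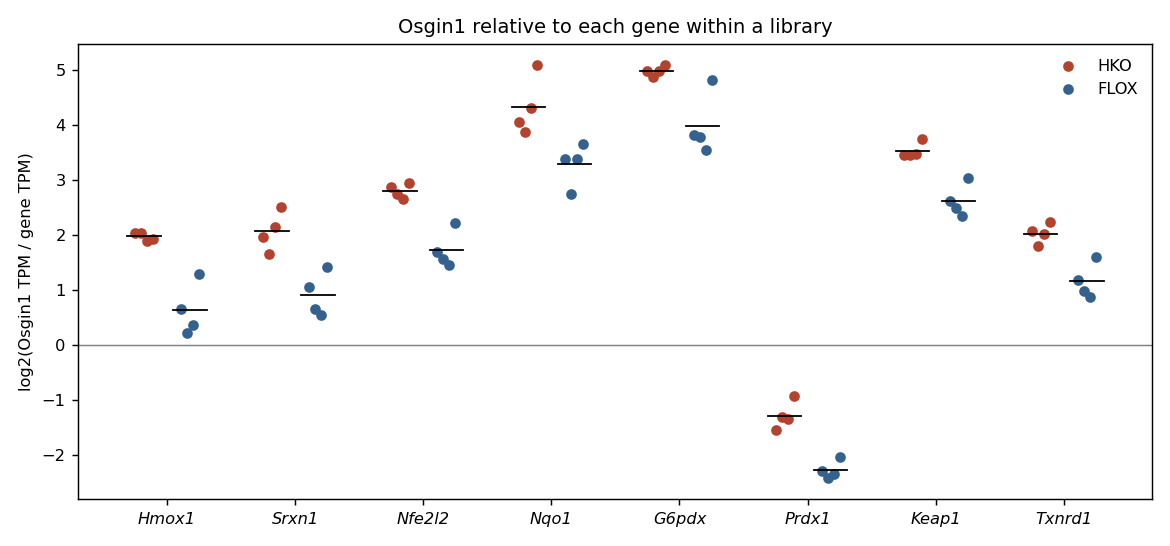
Log2 of *Osgin1* TPM over the TPM of each tested gene in the same library (vertical axis), with HKO (red) left of FLOX (blue) and the group mean as a black line. All HKO points lie above all FLOX points for 8 of 8 genes. With *Hmox1* and *G6pdx* the HKO points lie closest together. The highest FLOX point is FLOX4 for each of the genes.

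The order of the libraries was described within each group. From low to high, *Osgin1* ran HKO1, HKO3, HKO2, HKO4, and 4 of the 8 tested genes, *Nfe2l2*, *Keap1*, *Hmox1* and *G6pdx*, had this same order. So did 14.2% of all tested genes. Among the controls *Osgin1* ran FLOX2, FLOX3, FLOX4, FLOX1, and none of the 8 genes shared that order, which 2.18% of all tested genes had, so that none among 8 is near the background. FLOX4 was the lowest control for 8 of the 8 genes and the lowest of all 8 libraries for 6. It was the lowest control for 62.6% of all tested genes, and for *Osgin1* it was the second highest of the controls. HKO1 was the lowest knockout for 5 of the 8 genes, for *Osgin1* and for 56.6% of all tested genes. For those 5 genes FLOX4 was also the lowest control, a combination found in 40.4% of all tested genes. These orders were described after the values had been seen.

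Markers of several other cell types were also low in FLOX4. Of the tested markers, FLOX4 was the lowest control for 12 of 13 of macrophages, 11 of 11 of sinusoidal endothelium and 11 of 11 of stellate cells, while HKO1 was the lowest knockout for 6 of 13, 10 of 11 and 4 of 11 of them. Among all tested genes these shares were 62.6% for FLOX4 and 56.6% for HKO1. FLOX4 was the lowest control for 1 of 5 cholangiocyte markers, 4 of 5 T, B and NK cell markers and 0 of 11 hepatocyte markers. The summed level of 15 macrophage markers ranged from 2160 to 2956 TPM in HKO and from 1558 to 2883 TPM in FLOX, where FLOX4 was the lowest, and none of the 15 was at 0 in all libraries. *Clec4f*, a marker of resident Kupffer cells, stood at 63.07, 90.65, 117.89 and 113.32 TPM in HKO1 to HKO4, against 74.99, 96.37, 150.65 and 66.13 TPM in FLOX1 to FLOX4. HKO1 was the lowest knockout for *Clec4f* and for *Adgre1*, a general macrophage marker, but the lowest macrophage sum of the knockouts was that of HKO3. *Marco*, a scavenger receptor of Kupffer cells, lay below every control in every knockout without passing (log2 fold change -0.84, adjusted p = 0.0609 in limma), and was named after its values were seen. It was the only 1 of the 13 tested macrophage markers to do so, beside 1.46% of all tested genes. The sum of 11 sinusoidal endothelial markers, *Stab2* and *Lyve1* among them, was 106, 133, 132 and 135 TPM in HKO1 to HKO4, against 176, 189, 162 and 80.7 TPM in FLOX1 to FLOX4, so that every knockout lay below all controls but FLOX4. Values of 10 of the 11 endothelial markers were lower in HKO, with a median log2 fold change of -0.24, and of -0.53 without FLOX4. Values of 10 of the 11 tested hepatocyte markers were lower too, with a median of -0.08. Among all tested genes, 64.6% had higher values in HKO. The difference for *Osgin1* was 1.07 without FLOX4. The sum of 11 stellate cell markers, *Lrat* among them, ranged from 505 to 699 TPM in HKO and from 298 to 631 TPM in FLOX. FLOX4 had the lowest sum in each of these 3 lists, and the highest sum of 11 matched hepatocyte markers, which ranged from 84799.5 to 98291 TPM in HKO and from 92480 to 110282 TPM in FLOX. The 6 cholangiocyte markers, with *Krt19*, summed to 180 to 634 TPM in HKO and 247 to 468 TPM in FLOX, and the 10 T, B and NK cell markers, with *Cd3e*, to 8.89 to 26.9 TPM in HKO and 6.53 to 18.7 TPM in FLOX. In whole liver, fewer cells of a type and less RNA per cell cannot be told apart, and the part of these cells in the levels of the 10 genes was not tested. Without HKO1 and FLOX4 together, a setting chosen after the data were seen, the difference was 1.16 for *Osgin1*, and none of the 8 genes passed (smallest adjusted p = 0.391 in limma, for *Hmox1* at -0.37).

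**Figure D4:**
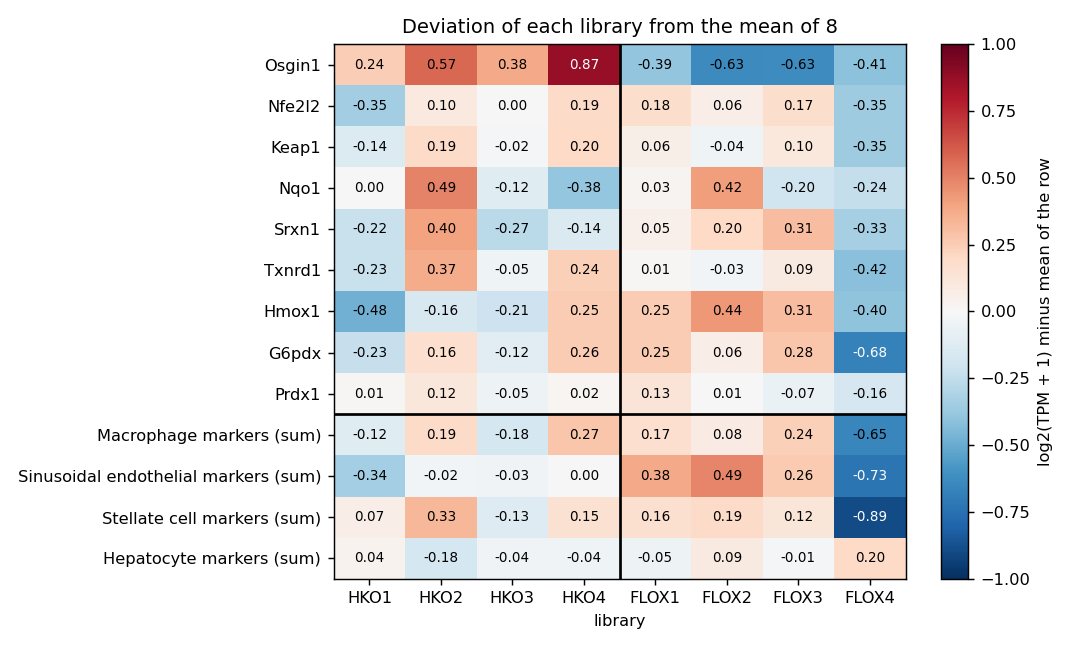
Deviation of log2(TPM + 1) from the mean of each row in HKO1 to HKO4 (left of the line) and FLOX1 to FLOX4 (right), for the 9 tested genes and, below the horizontal line, for the summed level of 4 marker lists. The *Osgin1* row is above 0 in the 4 HKO libraries and below 0 in the 4 FLOX libraries, whereas in FLOX4 the other rows are below 0 apart from the hepatocyte markers (0.20).

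Wider lists of the pathway were read in the same fit. Of 184 tested genes on all lists other than the 10 genes themselves, 1 passed the adjusted p of 0.05, the clock gene *Arntl*. This threshold was passed by 0.102% of all tested genes, so that none passing on a list as short as these is near the background. No tested gene of the 6 marker lists passed. Among 13 tested regulators and partners of NRF2 (14 listed), none passed in either direction, at the adjusted or the unadjusted p of 0.05. The unadjusted threshold was passed by 8.02% of all tested genes, so that none among 13 is near the background. The median log2 fold change was 0.10, beside 0.05 for all tested genes, and it was 0.037 without HKO3. Those with the lowest p-values were *Sesn2*, *Gsk3b*, *Bach1* and *Dpp3*. *Bach1*, the repressor that competes with NRF2 at *Hmox1*, averaged 7.13 ± 1.40 TPM in HKO and 6.11 ± 1.26 TPM in FLOX (SD, n = 4 each; log2 fold change 0.19, adjusted p = 0.881 in limma). *Dpp3*, whose product binds KEAP1, had a log2 fold change of 0.21. *Sesn2*, a stress-induced sestrin that also stands on the list of ATF4 targets, had 0.31. *Gsk3b*, a kinase that marks NRF2 for degradation, had 0.24.

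Of 32 tested further NRF2 targets outside glutathione (33 listed), none passed, with values higher in 25 and lower in 7, where 64.6% of all tested genes had higher values. Their median log2 fold change was 0.09, and it was 0.0083 without FLOX4 and 0.024 without HKO2. At an unadjusted p of 0.05, 4 were higher and none lower, beside 5.57% higher and 2.45% lower among all tested genes. These were *Cbr1*, *Ces1g*, *Nqo2* and *Esd*. *Cbr1*, a carbonyl reductase, stood at 124.62, 151.72, 136.79 and 137.71 TPM in HKO1 to HKO4, against 125.50, 90.37, 108.66 and 78.53 TPM in FLOX1 to FLOX4 (log2 fold change 0.47 ± 0.14 SE, limma adjusted p = 0.300). Its highest control lay just above its lowest knockout. *Ces1g*, a carboxylesterase, had a log2 fold change of 0.27, *Nqo2*, the relative of *Nqo1*, had 0.30, and *Esd*, esterase D, had 0.20 (adjusted p = 0.440, 0.548 and 0.581 in limma). *Esd* was the one of the 32 whose knockouts all lay above the controls, which 3.29% of all tested genes showed.

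Among 15 thioredoxin and peroxiredoxin genes, none passed and the median was -0.02. *Txn1* and *Prdx6* among them also stand on the list of further targets. *Glrx5*, a mitochondrial glutaredoxin of iron-sulfur cluster assembly, stood at 38.11, 35.40, 39.72 and 33.93 TPM in HKO1 to HKO4, against 42.04, 52.12, 67.41 and 68.80 TPM in FLOX1 to FLOX4. All knockouts lay below all controls, as for 1.46% of all tested genes, without passing (log2 fold change -0.61 ± 0.15 SE, limma adjusted p = 0.219). *Glrx*, *Txn1* and *Prdx4* followed with log2 fold changes of -0.23, 0.14 and 0.10. Of 10 pentose phosphate and NADPH genes, 5 of which also stand on the list of further targets, none passed and the median was 0.04. *Rpe* and *Idh1* had the smallest p (log2 fold changes 0.14 and 0.16). *Pgd*, the NADPH-forming step after *G6pdx*, averaged 76.0 ± 14.8 TPM in HKO and 75.1 ± 12.4 TPM in FLOX (SD, n = 4 each), and is named after its values were seen.

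The genes beside *Hmox1* in heme and iron handling had a median of -0.0073 over 11 tested genes, and none passed. Of these, *Blvra*, *Blvrb*, *Ftl1*, *Fth1* and *Slc48a1* also stand on the list of further targets. *Alas1*, the rate-limiting enzyme of heme synthesis, averaged 604 ± 168 TPM in HKO and 932 ± 221 TPM in FLOX (SD, n = 4 each; log2 fold change -0.64 ± 0.21 SE, limma adjusted p = 0.396). *Spic*, a factor of heme-loaded macrophages, and *Hmox2*, the constitutive heme oxygenase, had log2 fold changes of -0.35 and -0.08. Superoxide, catalase and other antioxidant genes had a median of 0.01 over 12 tested genes, and none passed. The metallothionein genes *Mt1* and *Mt2*, metal-binding stress proteins, were lower in every knockout than in every control without passing (log2 fold changes -1.51 and -1.53, adjusted p = 0.0930 for each in limma). These were 2 of the 12 genes, beside 1.46% of all tested genes with knockouts wholly below the controls. At an unadjusted p of 0.05 in limma, 2 of the 12 were lower and none higher, beside 2.45% and 5.57%. *Gpx1* and *Sod2* had 0.08 and 0.09.

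The ATF4 targets beside *Slc7a11*, a list of 17 genes under 18 identifiers because *Ddit3* has more than 1, had a median of 0.26 over 16 tested identifiers, and none passed. At an unadjusted p of 0.05 in limma, 5 of the 16 were higher and 1 lower in HKO, beside 5.57% and 2.45% of all tested genes. Of the 16, 1 lay wholly above and 1 wholly below the controls, beside 3.29% and 1.46% of all tested genes. *Chac1*, a glutathione-degrading enzyme, averaged 17.2 ± 7.66 TPM in HKO and 4.65 ± 2.77 TPM in FLOX (SD, n = 4 each; log2 fold change 1.69 ± 0.40 SE, limma adjusted p = 0.207). *Trib3* had a log2 fold change of 1.08 and *Cth*, the cysteine-forming gamma-lyase, had 0.49, while *Asns*, asparagine synthetase, had -0.65 (adjusted p = 0.223, 0.364 and 0.209 in limma). *Slc3a2*, the heavy chain that partners the *Slc7a11* product, stood at 58.78, 73.03, 61.72 and 71.14 TPM in HKO1 to HKO4, against 51.96, 58.69, 58.09 and 45.08 TPM in FLOX1 to FLOX4, with all knockouts above the controls by a narrow margin (log2 fold change 0.30, adjusted p = 0.491 in limma). It is named after its values were seen. The glutathione genes of the NRF2 programme had a median of 0.26 over 16 tested genes (0.15 without HKO2 and 0.17 without FLOX4), and none passed the adjusted p. At an unadjusted p of 0.05, 7 of the 16 were higher and none lower in HKO, and 4 of the 16, *Gclc*, *Gstm3*, *Gsta4* and *Gstm1*, had every knockout above every control, beside 5.57%, 2.45% and 3.29% of all tested genes for these counts. *Gclc*, the catalytic subunit of the rate-limiting enzyme of glutathione synthesis, averaged 152 ± 15.9 TPM in HKO and 101 ± 14.8 TPM in FLOX (SD, n = 4 each; log2 fold change 0.59 ± 0.12 SE, limma adjusted p = 0.134), and *Gstm3*, *Gstm6* and *Gsta4* had 0.59, 0.37 and 0.35.

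**Figure D5:**
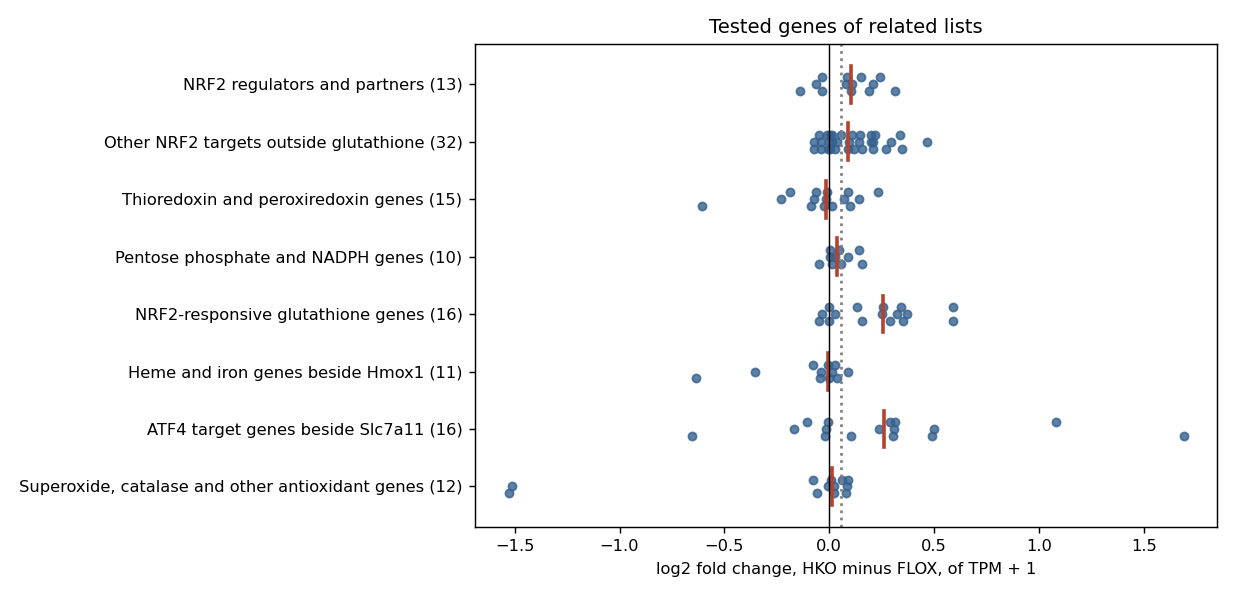
Log2 fold change of TPM + 1, HKO minus FLOX (horizontal axis), of each tested gene on 8 related lists, with the number tested in parentheses, the list median as a red bar and the median of all tested genes (0.05) as a dotted line. Most points of the NRF2 lists lie near 0, the medians of the glutathione and ATF4 lists are both 0.26, and *Mt1* and *Mt2* are the points near -1.5 on the lowest row.

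Clock genes were read because the time of collection is not known. Of 16 tested (17 listed), *Arntl*, the core activator BMAL1, passed. It stood at 11.95, 12.47, 13.10 and 19.55 TPM in HKO1 to HKO4, against 4.12, 5.27, 6.52 and 3.18 TPM in FLOX1 to FLOX4 (log2 fold change 1.41 ± 0.21 SE, limma adjusted p = 0.0490). It passed in 5 of 17 alternatives and in 1 of the 8 fits that left out a single library, with log2 fold changes of 1.26 to 1.55 and adjusted p of 0.0432 to 0.144 in those 8 limma fits. *Npas2*, its relative, and *Nfil3*, a repressor of clock output, had every knockout above every control without passing (log2 fold changes 1.19 and 1.07, adjusted p = 0.0930 and 0.104 in limma), and *Ciart*, a repressor, had every knockout below (-1.40, adjusted p = 0.0865 in limma). The list median was -0.41. Of the 16 genes, 4 lay wholly above and 4 wholly below the controls, beside 3.29% and 1.46% of all tested genes. At an unadjusted p of 0.05 in limma, 4 were higher and 7 lower in HKO, beside 5.57% and 2.45% of all tested genes. *Dbp*, named after its values were seen, lay below every control in every knockout without passing (log2 fold change -2.44, adjusted p = 0.108 in limma). *Osgin1* thus differed between groups that also differed in *Arntl*, and the part of clock phase in its level was not tested.

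The profiles most like that of *Osgin1* were sought among 6175 other tested genes with a mean of at least 10 TPM. Likeness was the root-mean-square difference over the 8 libraries between deviations of log2(TPM + 1) from the mean of each gene, so it favours genes with the same difference between genotypes. The nearest was *Pter*, a phosphotriesterase-related gene (0.21), which stood at 122.53, 116.89, 123.91 and 157.13 TPM in HKO1 to HKO4, against 76.43, 74.71, 81.38 and 68.92 TPM in FLOX1 to FLOX4. It was followed by *Nme6*, of the nucleoside diphosphate kinase family (0.22), *Chka*, choline kinase alpha (0.24), *Nr0b2*, the nuclear receptor SHP (0.25), and *Ppp2r3d*, a regulatory subunit of protein phosphatase 2A (0.26). All 5 had every knockout above every control, as the measure favours. *Txnrd1* was the nearest of the NRF2 pathway genes, at rank 1219 (0.49), followed by *Keap1* at 1579 and *Prdx1* at 2634. The farthest were *Nqo1* at 5569, *Srxn1* at 5623 and *Hmox1* at 5895 (0.73).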

How the data were processed

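RNA sequencing of 8 livers was deposited as 1 table. Per the file headers and the labels, the authors deposited TPM values with 2 decimals in 8 columns, over 55416 identifiers. RSEM 1.3.3 and the build GRCh38.p13 are named in the submitters' processing notes, though that build is human and the identifiers are those of mouse. Per the labels' protocols, libraries were stranded. No source used here names the aligner, the annotation or the strand setting. Columns were matched to samples by name. Symbols were found for 52083 identifiers.

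Values were taken as log2(TPM + 1), a pseudocount of 1 that understates changes of low genes. Genes at or above 1 TPM in 4 or more libraries were fitted in limma 3.58.1 under R 4.3.3 (lmFit, eBayes with trend), without covariates, with Benjamini-Hochberg adjustment over all tested genes. The 8 libraries were not identical (pairwise r 0.971 to 0.983). Depth is unknown. In *Smpd3* the log2 fold change was -1.89 ± 0.24 SE (adjusted p = 0.0300 in limma; 2-sided exact permutation test p = 0.0286, the smallest that 70 assignments allow). Named genes were the 10 members, *Smpd3*, up to 4 genes of smallest p per list, the 5 nearest profiles, defining cell markers, and genes stated to be named after their values were seen. Members and lists were chosen with earlier results of these data known. On simulated data of 12710 genes for this comparison, the fit recovered 79% of 100 genes changed 2-fold and 96% of 100 changed 4-fold, with 14 wrong calls. The changed genes were drawn from the more abundant genes only, and each gene was drawn independently. Recovery at low levels, such as that of *Smpd3*, was therefore not measured. Because replicate numbers are shared, a fit with the number as a block was an alternative. Correlations of same-numbered deviations ran from -0.20 to 0.03, so same-numbered libraries did not deviate together over all genes. Whether the numbers pair the samples in another way was not tested.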

Additional observations from a re-analysis of the deposited data

Results flagged for a closer look

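*Srxn1* in the knockouts had 1 library far from the others. HKO2 stood at 120.10 TPM and the other knockouts between 74.79 and 81.96 TPM, so that the gap to its nearest neighbour was 0.842 of the group's range, above Dixon's 95% critical value for 4 samples. Chance flags about 1 in 20 such groups, and 22 groups were examined.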

How the results depend on the processing

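In 17 alternatives, of which leaving out HKO1 and FLOX4 together was chosen after seeing the data, none of the 8 tested NRF2 pathway genes passed in limma (smallest adjusted p = 0.391), and 122 of 136 values kept their direction. The direction turned in 14, all of genes with differences close to 0. These were *Nfe2l2* without single libraries (-0.030 with all, -0.15 to 0.081), *Nqo1* likewise (-0.0052 with all, -0.17 to 0.13), and *Prdx1* after median-of-ratios scaling (-0.014). *G6pdx* turned after median-of-ratios scaling (-0.018), quantile normalization (-0.024), without HKO2, HKO4 or FLOX4 (without single libraries it ran from -0.18 to 0.14) and without HKO1 and FLOX4 together (-0.10). The difference for *Osgin1* stayed between 0.92 and 1.16, and 7 members had a promoter core also in the 250 bases before the start alone.

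The count of genes past the threshold, 13 in all, was 8 and 6 with pseudocounts of 0.1 and 5, 0 without a filter, 20 after rescaling without mitochondrially encoded and the 20 most abundant genes, 0 with the replicate block, 0 without HKO1 and FLOX4 together, and 0 to 16 without single libraries (0 without HKO3 or FLOX1, 2 without HKO2, 3 without FLOX4 and 5 without HKO1). For the wider lists the count of 1 was 0 with either pseudocount, without a filter, with the replicate block or without HKO1 and FLOX4 together, 2 with a mean of at least 5 TPM or after rescaling, and 0 to 4 without single libraries (0 in all of these but the fit without FLOX3). List medians also moved without single libraries, from 0.037 to 0.15 for the regulators, 0.0083 to 0.12 for the further targets, 0.15 to 0.30 for the glutathione genes, 0.19 to 0.33 for the ATF4 targets, -0.0058 to 0.074 for the pentose phosphate genes and -0.53 to -0.10 for the endothelial markers. *Smpd3* did not pass without a filter (log2 fold change -1.89, adjusted p = 0.167 in limma), with the replicate block (-1.89, adjusted p = 0.0818) or without HKO1 and FLOX4 together (-1.93, adjusted p = 0.0603), nor without HKO1, HKO3, HKO4, FLOX1 or FLOX2, and without single libraries it ran from -2.06 to -1.76. The cause was not tested. Same-numbered libraries did not deviate together over all genes, and the block changed no call of an NRF2 pathway gene. TPM holds no depth, so counting error is not known.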
